A study of Mus musculus with 4 samples.

Results

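A group of 45 mitosis and spindle checkpoint genes was followed in neural stem/progenitor cells (NSCs) of 2 genotypes. They were picked by name for their roles in cell division, and each was matched to the row of the expression table with that gene name. All 45 were found among the 18169 rows of the table, 1 row each, and all 45 passed the minimum for testing, a mean of 1 TPM (a length-corrected measure of the share of a transcript in all transcripts of a sample) over the 4 samples, as did 12576 rows in all.

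Primary NSCs were grown from the periventricular region of C57BL/6 mouse brains, each culture from 1 newborn, in medium with epidermal growth factor and fibroblast growth factor 2, which keeps the cells dividing and undifferentiated. Polyadenylated RNA was sequenced from 2 +/+ cultures, called +/+ replicates 1 and 2, and from 2 cultures lacking Chd5, a chromatin remodeler of the CHD family, called Chd5-/- replicates 1 and 2. The growth protocol gives postnatal day 1 for all cultures, whereas the age entries give days 1 and 2 for the +/+ cultures and days 3 and 4 for the Chd5-/- cultures. By these entries age goes with genotype, and the 2 cannot be told apart. The comparison asks whether RNAs of the mitotic machinery differed between genotypes by more than between 2 cultures of one genotype.

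In a dividing cell, cyclin A and cyclin B bound to the kinase Cdk1 drive entry into mitosis, Polo and Aurora kinases build the spindle, condensin compacts the chromosomes, and kinetochores tie each chromosome to spindle microtubules. The spindle checkpoint holds back the anaphase-promoting complex until every kinetochore is attached, after which Cdc20 turns the complex on, securin and cyclin B are destroyed and the sister chromatids part. Most of these genes are transcribed in G2 and mitosis and silent in resting cells, so that their RNA follows the share of cells in division. In RNA from a whole culture, more dividing cells and more RNA per dividing cell cannot be told apart.

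Many mitotic genes share a pair of promoter elements, the cell cycle genes homology region (CHR), which is bound by the MuvB complexes that silence or activate these genes through the cycle, and the CCAAT box, which is bound by NF-Y. RefSeq promoter windows of GRCm38.p6, running from 250 bases before to 50 bases after 1 transcript start per gene, were matched for 37 of the 45 genes. A CHR, searched as TTTGAA or TTCGAA on both strands, was found in 28 of the 37 windows (75.7%), against 13% of the 9216 windows of rows tested and 19.4% of all 27025 windows. A CCAAT box, searched as CCAAT on both strands, was found in 27 (73%), against 39.6% and 37.9%, and both motifs in 25 (67.6%), against 5.67% and 7.7%. The 2 motifs overlapped in 1 member. Stretches from 150 bases before to 20 bases after the start are given for Cdc20 and Ccnb2, which had the largest differences between genotypes, for Cdk1, the kinase at the centre of the group, and for Mad2l1, a checkpoint gene with neither motif and no such difference. Each is written 5′ to 3′ on the strand of the gene, with motifs in capitals (TTTGAA for the CHR, CCAAT or its reverse complement ATTGG for the CCAAT box).
Cdc20 (chr4:118437324-118437493, minus strand): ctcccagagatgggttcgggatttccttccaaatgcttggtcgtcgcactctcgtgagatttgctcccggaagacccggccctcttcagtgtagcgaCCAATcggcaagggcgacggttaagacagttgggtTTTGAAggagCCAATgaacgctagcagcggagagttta
Ccnb2 (chr9:70421535-70421704, minus strand): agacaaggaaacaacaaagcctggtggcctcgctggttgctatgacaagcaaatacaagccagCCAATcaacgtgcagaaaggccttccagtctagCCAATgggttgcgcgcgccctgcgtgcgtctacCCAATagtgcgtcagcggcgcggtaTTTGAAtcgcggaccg
Cdk1 (chr10:69352893-69353062, minus strand): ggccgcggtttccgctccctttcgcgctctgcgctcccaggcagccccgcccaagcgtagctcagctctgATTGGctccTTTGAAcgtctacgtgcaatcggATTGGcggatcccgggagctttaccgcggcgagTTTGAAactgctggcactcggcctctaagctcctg
Mad2l1 (chr6:66535071-66535240, plus strand): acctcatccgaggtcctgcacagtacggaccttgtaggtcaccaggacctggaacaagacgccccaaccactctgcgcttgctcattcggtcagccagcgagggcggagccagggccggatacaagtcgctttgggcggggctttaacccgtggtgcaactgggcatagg
A match describes these letters only, and binding was not measured. The Mad2l1 stretch ends at 66535240, before the GENCODE start of the gene at 66535390. Its lack of motifs thus holds for the RefSeq start used. Within these shorter stretches a CHR was found in 21 of the 37 genes. The median difference in log2(TPM + 1) between genotypes, described next, was 0.68 in these 21 and 0.57 in the 16 without one.

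The table holds TPM values, which sum to the same total in each sample and hold no read numbers, so the depth of the libraries is unknown and values carry no counting interval. Chd5 itself was at 0.39 and 0.37 TPM in the +/+ cultures and at 0.06 and 0.04 TPM in the Chd5-/- cultures. The 10 NSC markers examined, among them Sox2, Nes and Vim, were at a mean of at least 1 TPM. Their summed levels were 9870 and 8188 TPM in the +/+ cultures and 3987 and 6907 TPM in the Chd5-/- cultures. Of these sums Fabp7 held 5891.59, 4315.73, 1938.77 and 3822.43 TPM, so they do not describe each marker. Slc1a3 was at 1871.05, 1620.40, 442.25 and 1005.58 TPM, whereas Egfr was at 138.93, 129.19, 147.21 and 324.03 TPM. Summed astrocyte markers were at 405, 587, 181 and 675 TPM in the same order and summed neuronal markers at 507, 517, 372 and 797 TPM, of which Map2 held 502.92, 515.77, 365.59 and 784.89 TPM, while the neuronal marker Rbfox3 was under 1 TPM throughout. The microglial and endothelial markers found in the table summed to under 1 TPM in each culture, and mesenchymal markers to 12 TPM in Chd5-/- replicate 1 and to at most 0.17 TPM in the others. The part of these levels in the results on mitotic genes was not tested. The rank correlation of TPM over all rows tested was 0.974 between the +/+ cultures and 0.904 between the Chd5-/- cultures.

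The mitotic RNAs were more abundant in Chd5-/- than in +/+ NSCs on average, but the +/+ cultures differed from each other by more than the genotypes did. Summed over the 45 genes, the level was 1796 and 1150 TPM in +/+ replicates 1 and 2 and 1885 and 2565 TPM in Chd5-/- replicates 1 and 2. The mean was 1473 ± 457 TPM in +/+ and 2225 ± 481 TPM in Chd5-/- cultures (SD, n = 2 each), a ratio of 1.51. Between the +/+ cultures alone the ratio was 1.56, and between the Chd5-/- cultures it was 1.36. The genotypes did not overlap in this sum, but Chd5-/- replicate 1 lay only just above +/+ replicate 1.

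**Figure D1:**
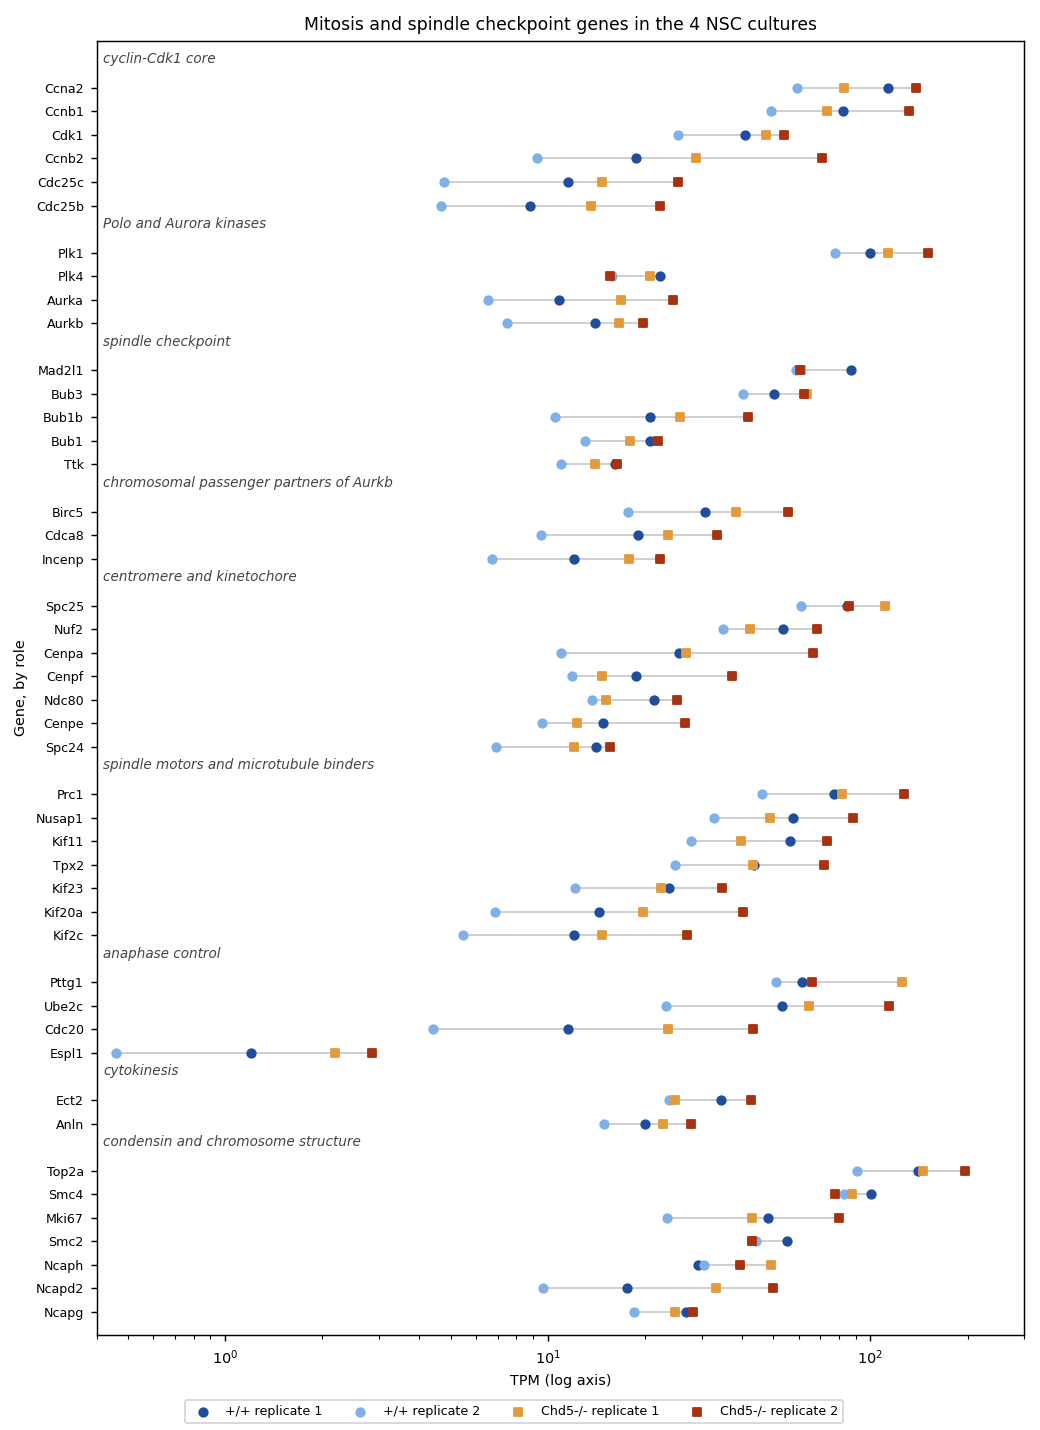
TPM of the 45 genes on a log axis, grouped by role, with 1 point per culture (circles +/+, squares Chd5-/-) and a grey line over the range of the 4 values. The light blue circle of +/+ replicate 2 is lowest in 41 genes and the dark red square of Chd5-/- replicate 2 is highest in 37.

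The genotypes were compared gene by gene with limma on log2(TPM + 1), fitted over all 12576 rows, and every difference given is Chd5-/- minus +/+ on that scale, which understates changes of genes with low TPM. None of the 45 genes passed an adjusted p of 0.05 (smallest adjusted p = 0.126, for Ncapd2), and over all rows 0.0557% did. At an unadjusted p under 0.05 there were 11, all higher in Chd5-/- NSCs, or 24.4% of the genes, where 21.9% of all rows were higher, 2.27% lower and 24.1% called in either direction. The share of called members was thus near that of the whole table. The size of the difference in the 11 genes depended on which cultures were included. Fits that leave out 1 culture assume for the lone culture the spread of the other genotype, so only their differences are interpreted. Counts at a p threshold from these fits are listed with the other settings but not interpreted. With 2 cultures against 2, an exact permutation test cannot give a two-sided p below 0.333.

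Direction was more uniform than size. The difference was above 0 in 41 of the 45 genes (91.1%, against 70.4% of all rows), with Plk4, Mad2l1, Smc2 and Smc4 below 0. Its median was 0.62, with a range from -0.23 to 2.00, where the median over all rows was 0.34. A difference of at least 2-fold upward was seen in 12 genes (26.7%, against 18.5%). Both Chd5-/- values lay above both +/+ values in 25 genes (55.6%, against 46.3%), and below them in Smc2 alone (2.22%, against 13%). This median fell to 0.31 with +/+ replicate 2 left out and to 0.39 with Chd5-/- replicate 2 left out, whereas leaving out replicate 1 of either genotype gave 0.98. Genes without overlap in either direction numbered 26 (57.8%, against 59.4% of all rows). A lone culture against 2 overlaps less often by order alone, so counts with 1 culture left out cannot be set beside the 26.

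The cyclin-Cdk1 core, which commits the cell to mitosis, holds 6 genes with a median difference of 0.95, and all 6 were above 0. Ccnb2 (chromosome 9 of GRCm38, 70407692 to 70421547, minus strand), the Golgi-associated B-type cyclin, was at 18.72 and 9.26 TPM in the +/+ cultures and at 28.78 and 70.61 TPM in the Chd5-/- cultures. Its difference was 1.70 (95% interval 0.34 to 3.06, limma adjusted p = 0.159). The 2 Chd5-/- cultures differed from each other by 1.27, the larger of the replicate differences. Cdc25b (chromosome 2, 131186949 to 131198497, plus strand), a phosphatase that activates Cdk1, was at 8.79 and 4.68 TPM in +/+ and at 13.65 and 22.21 TPM in Chd5-/- cultures, a difference of 1.31 (limma adjusted p = 0.156). Cdc25c, its relative, was the other member of this group with an unadjusted p under 0.05. Cdk1 itself (chromosome 10, 69335146 to 69352938, minus strand) was at 40.82 and 25.30 TPM in +/+ and 47.55 and 54.05 TPM in Chd5-/- cultures, a difference of 0.64 with an interval of -0.13 to 1.41. The genotypes did not overlap for these 4 genes.

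The most abundant cyclin of the 45 genes behaved differently. Ccna2 (chromosome 3, 36564865 to 36572150, minus strand), the cyclin of S phase and G2, was at 113.09 and 59.05 TPM in +/+ and at 82.97 and 138.12 TPM in Chd5-/- cultures. Its genotypes overlapped, the difference of 0.39 was smaller than both replicate differences (0.93 and 0.73), and it turned to -0.026 with median-of-ratios scaling. Ccnb1, the main mitotic cyclin, ranged from 49.06 to 132.13 TPM and overlapped too. Ccnb1 has 4 near-identical pseudogenes in the annotation, for which no row was matched by name. Ccna2 shares 12.5% of its exon bases with Exosc9 on the opposite strand, so reads there could have been assigned to either.

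Among the Polo and Aurora kinases, Plk1 (chromosome 7, 122159439 to 122169873, plus strand), which acts from mitotic entry to cytokinesis, was the most abundant, at 99.81 and 77.92 TPM in +/+ and 113.19 and 151.07 TPM in Chd5-/- cultures. The difference of 0.56 did not overlap but its interval ran from -0.10 to 1.23, and it was -0.30 once trends with GC content and transcript length were removed. Aurka (chromosome 2, 172356190 to 172370535, minus strand), the kinase of centrosomes and spindle poles, was at 10.87 and 6.52 TPM in +/+ and 16.84 and 24.47 TPM in Chd5-/- cultures. Its difference was 1.17 (limma adjusted p = 0.153), beyond both replicate differences (0.66 and 0.51). Plk4, the kinase that starts centriole duplication, stood apart from the other 3 kinases. It was at 22.33 and 15.81 TPM in +/+ and at 20.80 and 15.59 TPM in Chd5-/- cultures, a difference of -0.06 with an interval of -0.82 to 0.70, so that neither direction was detectable.

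The 5 spindle checkpoint genes had the lowest median of the 9 role groups, 0.25 as deposited and -0.14 with median-of-ratios scaling or quantile normalization. With GC content and length trends removed it was 0.26, and the Polo and Aurora kinases were lowest, at 0.16. Of the 5 genes, 3 overlapped between genotypes. Mad2l1 (chromosome 6, 66535390 to 66547220, plus strand), whose protein binds and holds Cdc20, was at 87.06 and 58.91 TPM in +/+ and 61.13 and 60.59 TPM in Chd5-/- cultures, a difference of -0.23 with an interval of -0.91 to 0.45. Only +/+ replicate 1 was high. Ttk, the kinase that starts checkpoint signalling, was at 16.19 and 10.97 TPM in +/+ and 14.06 and 16.35 TPM in Chd5-/- cultures, and its difference of 0.17 was -0.22 with median-of-ratios scaling. Bub3 and Bub1b did not overlap. Bub3 differed by 0.47 (limma adjusted p = 0.271), and by 0.021 with GC content and length trends removed. Bub1b differed most, going from 20.69 and 10.50 TPM to 25.70 and 41.82 TPM, a difference of 1.10 (limma adjusted p = 0.198). Without these trends Bub1b differed by 0.75. Its protein, BubR1, is part of the complex that inhibits Cdc20.

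Aurkb and its 3 partners in the chromosomal passenger complex, which corrects faulty attachments and later guides cytokinesis, were alike. Birc5 (survivin, chromosome 11, 117849251 to 117855743, plus strand), the most abundant partner, was at 30.79 and 17.77 TPM in +/+ and 38.25 and 55.38 TPM in Chd5-/- cultures, a difference of 0.95 (limma adjusted p = 0.195). Incenp (chromosome 19, 9872296 to 9899551, minus strand), the scaffold of the complex, was at 12.04 and 6.70 TPM in +/+ and 17.82 and 22.24 TPM in Chd5-/- cultures, a difference of 1.06 (limma adjusted p = 0.168). The third partner, Cdca8 (borealin), had a difference of 1.00, and Aurkb one of 0.76. None of these 4 genes overlapped between genotypes. With GC content and length trends removed, the differences were 0.65 for Birc5, 0.31 for Incenp, 0.41 for Cdca8 and 0.26 for Aurkb.

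The 7 centromere and kinetochore genes had a median difference of 0.44, and none had an unadjusted p under 0.05 in limma. Spc25 (chromosome 2, 69193895 to 69206194, minus strand), part of the Ndc80 complex that grips microtubules, was the most abundant, at 84.42 and 60.73 TPM in +/+ and 111.14 and 85.62 TPM in Chd5-/- cultures. Here Chd5-/- replicate 1 was the highest culture, and Chd5-/- replicate 2 was barely above +/+ replicate 1. Cenpa (chromosome 5, 30666777 to 30674830, plus strand), the histone H3 variant that marks centromeres, was at 25.56 and 11.01 TPM in +/+ and 26.82 and 66.58 TPM in Chd5-/- cultures. Its difference of 1.28 was among the 6 largest, but the 2 Chd5-/- cultures differed by as much, 1.28, and the interval ran from -0.18 to 2.74. The difference of Cenpa was 0.27 once GC content and length trends were removed. The other 5 genes, Cenpe, Cenpf, Ndc80, Nuf2 and Spc24, overlapped between genotypes with differences from 0.18 (Ndc80) to 0.62 (Cenpf), of which those of Ndc80 and Nuf2 were -0.21 and -0.095 with median-of-ratios scaling and that of Spc24 was -0.32 with GC content and length trends removed. Within the Ndc80 complex the ratio of Ndc80 to Nuf2 was 0.398 and 0.393 in +/+ and 0.357 and 0.368 in Chd5-/- cultures, a log2 difference of -0.13.

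All 7 spindle motors and microtubule binders had a difference above 0, with a median of 0.74, and in all 7 +/+ replicate 1 was above replicate 2 and Chd5-/- replicate 2 above replicate 1. Prc1 (chromosome 7, 80294450 to 80316259, plus strand), which bundles the microtubules of the central spindle, was at 77.34 and 46.05 TPM in +/+ and 81.42 and 126.85 TPM in Chd5-/- cultures, a difference of 0.76 with an interval of -0.16 to 1.68. Kif20a (chromosome 18, 34624613 to 34633277, plus strand), a kinesin that brings the passenger complex to the central spindle, was at 14.47 and 6.89 TPM in +/+ and 19.77 and 40.15 TPM in Chd5-/- cultures. Its difference of 1.40 (limma adjusted p = 0.177) exceeded both replicate differences (0.97 and 0.99). Kif20a shares 29.3% of its exon bases with Cdc23 on the opposite strand, and whether the counting used strand is not given in the sources used here. Kif11, the motor that separates spindle poles, overlapped between genotypes, with a difference of 0.44 and replicate differences of 1.00 and 0.87.

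Anaphase control had the highest median of the 9 groups as deposited, 1.12, which was 0.55 and below that of the spindle motors (0.68) and the cyclin-Cdk1 core (0.67) with GC content and length trends removed. None of its 4 genes overlapped between genotypes. Cdc20 (chromosome 4, 118432901 to 118437352, minus strand), the activator of the anaphase-promoting complex and the target of the checkpoint, was at 11.57 and 4.42 TPM in +/+ and 23.57 and 43.36 TPM in Chd5-/- cultures. This was the largest difference of the 45, at 2.00 (interval 0.69 to 3.31, limma adjusted p = 0.129), against 1.21 between the +/+ and 0.85 between the Chd5-/- cultures. Ube2c, the ubiquitin-conjugating enzyme of that complex, had a difference of 1.26 (limma adjusted p = 0.198), and shares 22.8% of its exon bases with Tnnc2 on the opposite strand. Pttg1 (securin, chromosome 11, 43420250 to 43426251, minus strand), the inhibitor that holds back separase, was the most abundant of the 4, at 61.42 and 51.00 TPM in +/+ and 125.02 and 65.81 TPM in Chd5-/- cultures. It ran against the common order, with Chd5-/- replicate 1 highest by 0.92. Pttg1 differed by 0.69 between genotypes (limma adjusted p = 0.303). Espl1, separase itself, had the lowest level of all, from 0.46 TPM in +/+ replicate 2 to 2.86 TPM in Chd5-/- replicate 2, with a difference of 0.97.

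Of the cytokinesis genes, Ect2 (chromosome 3, 27097222 to 27153878, minus strand), which activates the GTPase of the contractile ring, was at 34.49 and 23.70 TPM in +/+ and 24.86 and 42.65 TPM in Chd5-/- cultures. The cultures of the 2 genotypes interleaved, and the difference of 0.18 was -0.22 with median-of-ratios scaling. Anln, a scaffold of the ring, ranged from 14.92 to 27.78 TPM without overlap, with a difference of 0.51.

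Condensin and chromosome structure genes differed among themselves. Top2a (chromosome 11, 98992943 to 99024189, minus strand), the topoisomerase that untangles sister chromatids, had the highest level of the 45, at 140.53 and 91.07 TPM in +/+ and 145.65 and 196.47 TPM in Chd5-/- cultures, and a difference of 0.58 with an interval of -0.21 to 1.36. Mki67, which coats mitotic chromosomes and is widely used as a proliferation marker, ranged from 23.46 to 80.06 TPM and overlapped, since +/+ replicate 1, at 48.23 TPM, exceeded Chd5-/- replicate 1, at 42.95 TPM. Ncapd2 (chromosome 6, 125168007 to 125191701, minus strand), a subunit of condensin I, was at 17.65 and 9.68 TPM in +/+ and 33.19 and 49.75 TPM in Chd5-/- cultures. With a difference of 1.56 (interval 0.60 to 2.52), it had the smallest p of the 45 (limma adjusted p = 0.126).

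The condensin core pair, Smc2 and Smc4, did not share this. Of the other subunits listed, Ncaph differed by 0.54 without overlap and Ncapg by 0.235 with overlap. Smc2 (chromosome 4, 52439243 to 52488260, plus strand) was at 55.12 and 44.22 TPM in +/+ and 42.96 and 43.11 TPM in Chd5-/- cultures, a difference of -0.19 with an interval of -0.78 to 0.39. Smc4 (chromosome 3, 69004738 to 69034623, plus strand) was at 100.13 and 83.00 TPM in +/+ and 87.84 and 77.87 TPM in Chd5-/- cultures, a difference of -0.14, which was 0.049 once GC content and length trends were removed. A ratio of 2 genes within a culture does not depend on the scaling between cultures, and the ratios given here were picked after the values were seen. Ncapd2 over Smc2 was 0.32 and 0.219 in +/+ and 0.773 and 1.15 in Chd5-/- cultures, a log2 difference of 1.83. It was 0.76 for Ncaph over Smc2 and 0.44 for Ncapg over Smc2, both without overlap. Smc4 over Smc2, the pair that forms the core, was 1.82 and 1.88 in +/+ and 2.04 and 1.81 in Chd5-/- cultures and overlapped. Cdc20 over its inhibitor Mad2l1 was 0.133 and 0.075 in +/+ and 0.386 and 0.716 in Chd5-/- cultures, a log2 difference of 2.40. Ccnb2 over Ccnb1 was 0.228 and 0.189 in +/+ and 0.393 and 0.534 in Chd5-/- cultures, a log2 difference of 1.14. With GC content and length trends removed the log2 differences were 0.96 for Ncapd2, 0.33 for Ncaph and 0.46 for Ncapg, each over Smc2. They were then 1.30 for Cdc20 over Mad2l1 and 0.75 for Ccnb2 over Ccnb1. Mad2l1 has a similar pseudogene, Gm42430, for which no row was matched by name.

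Replicates of one genotype differed in these genes in a common direction. The 2 +/+ cultures differed with replicate 1 higher in 44 of the 45 genes (97.8%, against 65.9% of all rows), Ncaph being the exception, and by at least 2-fold in 6 (13.3%, against 4.06%), with a median of 0.73 on the log2 scale, where the median over all rows was 0.14. The 2 Chd5-/- cultures differed with replicate 2 higher in 38 genes (84.4%, against 50.1%), by a median of 0.57, where that of all rows was 0.002. Both held in 38 genes (84.4%, against 35.6%). The absolute difference between genotypes had a median of 0.62 over the 45 genes, against 0.73 between +/+ and 0.60 between Chd5-/- cultures, whereas over all rows the 3 medians were 0.47, 0.25 and 0.40. The genotype difference exceeded both replicate differences in 19 genes (42.2%, against 46.4% of all rows), among them Cdc20, Ccnb2, Ncapd2, Kif20a, Cdc25b, Aurka and Incenp. Across the 45 genes the +/+ and the Chd5-/- replicate differences had a rank correlation of 0.71. This is a description, since the genes share the same 4 libraries, and the value over the 12109 rows with a known GC content was 0.17.

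**Figure D2:**
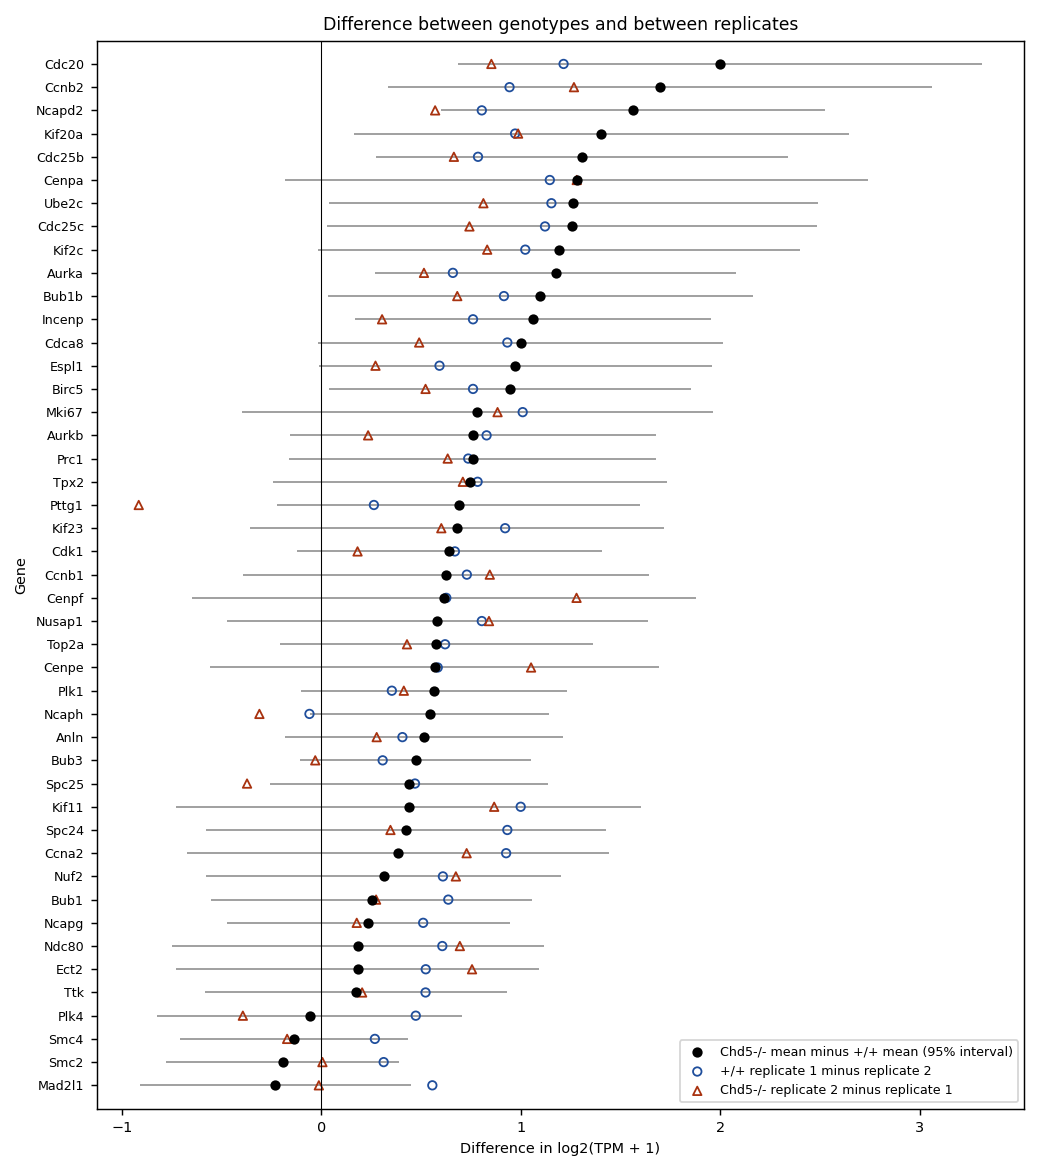
For each of the 45 genes, the difference in log2(TPM + 1) between genotype means (black, with its 95% interval from limma), between the +/+ cultures (blue circles) and between the Chd5-/- cultures (red triangles). The genotype difference is the largest of the 3 for Cdc20 (2.00), Ccnb2 (1.70) and Ncapd2 (1.56), and the replicate differences exceed it for Ccna2, Kif11, Ndc80 and Ect2.

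The difference between genotypes went with base composition. Transcript GC content (median over protein-coding transcripts of each gene, GENCODE M21) ranged from 39.7% in Smc2 to 57.7% in Cenpa, and its rank correlation with the difference was 0.76 over the 45 genes and 0.60 over 12109 rows. These are descriptions over genes of the same libraries. In the 15 genes of lowest GC content the median difference was 0.24, in the middle 15 it was 0.69 and in the 15 of highest GC content it was 1.10. Genes with an unadjusted p under 0.05 numbered 0, 4 and 7 in these sets. Over all rows in the same GC ranges the medians were lower, at -0.17, 0.086 and 0.64, and 2.3%, 5.6% and 34.3% were called higher. With GC content and length trends removed from each culture, the correlation over the 45 genes was 0.16, their median difference was 0.50 against -0.026 for all rows, and 41 were above 0. The differences were then 1.23 for Cdc20, 1.40 for Ccnb2, 0.68 for Cdc25b, 0.73 for Aurka, 1.14 for Kif20a and 0.65 for Ube2c. Only Ncapd2 had an unadjusted p under 0.05 in limma, with a difference of 0.95, where 11.2% of rows did. Of the 45 genes, 16 did not overlap between genotypes, 15 higher and 1 lower. The share over all rows without overlap was not computed for this setting. What set the trend with GC content was not tested.

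**Figure D3:**
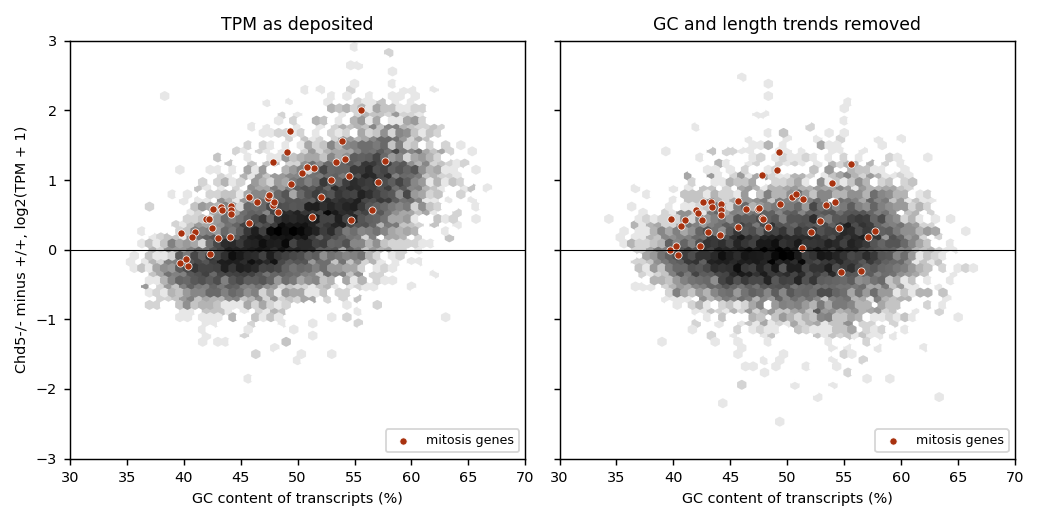
Difference between genotypes in log2(TPM + 1) against GC content of the transcripts, for all rows with a known GC content (grey, darker where rows are dense) and the 45 mitosis genes (red), as deposited (left) and with trends on GC content and length removed (right). On the left the red points climb from -0.23 for Mad2l1 to 2.00 for Cdc20, and on the right their median is 0.50.

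The size of the difference depended on the scaling between cultures. The 20 most abundant rows held 32.4% and 35.6% of the TPM in +/+ and 21.6% and 22.8% in Chd5-/- cultures, which leaves a larger share to all other rows in Chd5-/- cultures. Rescaling without these rows lowered the median of all rows from 0.34 to 0.13 and that of the 45 genes from 0.62 to 0.40. Median-of-ratios scaling lowered them to -0.032 and 0.22, and quantile normalization to -0.052 and 0.40. With median-of-ratios scaling, 2 of the 45 genes were higher (Cdc20 and Ncapd2) and 3 lower (Smc2, Smc4 and Mad2l1) at an unadjusted p under 0.05 in limma, where 1391 of the 12576 rows were higher and 1507 lower. Of the 45, 13 then did not overlap between genotypes, 9 higher and 4 lower, and 34 were above 0. Shares over all rows were not computed for these counts. Relative to the median of all rows, the 45 genes lay higher by 0.29 as deposited, by 0.27 after rescaling, by 0.26 after median-of-ratios scaling and by 0.45 after quantile normalization. Without +/+ replicate 2 this distance was 0.052 and without Chd5-/- replicate 2 it was 0.059, so that it rested on these 2 cultures.

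**Figure D4:**
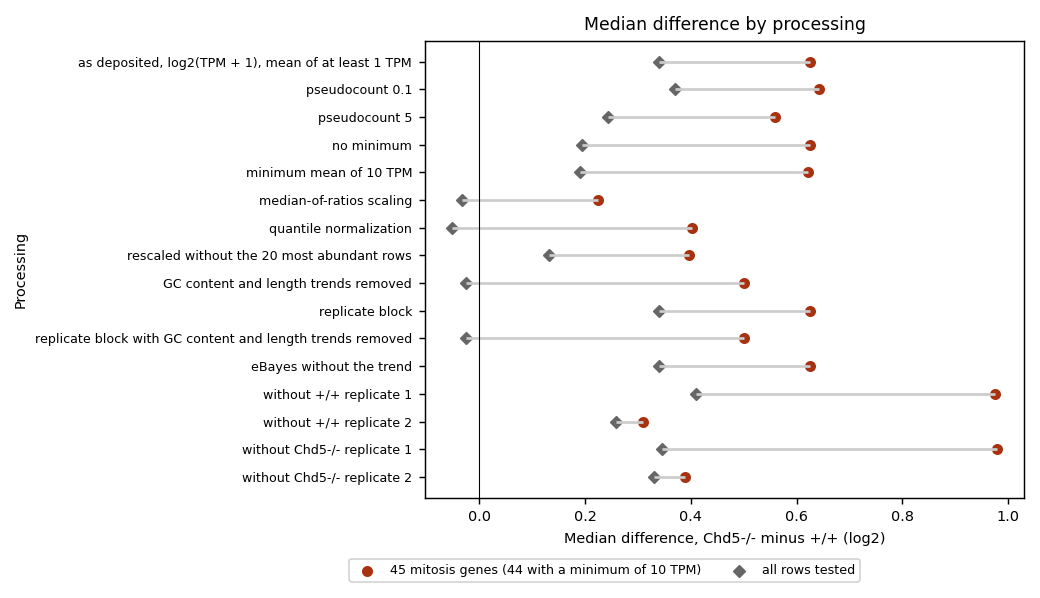
Median difference between genotypes on the log2 scale over the 45 genes (red circles, 44 genes with a minimum of 10 TPM) and over all rows tested (grey diamonds) under each processing. The circles lie between 0.22 and 0.98 and to the right of the diamonds under every processing shown, by the least without +/+ replicate 2 (0.052) and without Chd5-/- replicate 2 (0.059).

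Genes of G1 and S phase, 36 cyclins, kinases and replication factors listed beside the mitotic genes, followed a different order of cultures. In the +/+ cultures replicate 1 was higher in 34 of 36, by a median of 0.55, as for the mitotic genes. In the Chd5-/- cultures replicate 2 was higher in 3 of 36 only, and the median difference of replicate 2 minus replicate 1 was -0.54, against 0.57 for the mitotic genes. These 2 values were -0.51 and 0.58 with GC content and length trends removed, and -0.55 and 0.56 with median-of-ratios scaling. The 2 Chd5-/- cultures thus differed in both sets of genes, in opposite directions. Between genotypes the G1 and S phase genes had a median difference of 0.28, with 4 higher and 0 lower at an unadjusted p under 0.05 in limma, where 21.9% of all rows were higher and 2.27% lower. Ccnd1 (cyclin D1), which links growth factor signals to the cell cycle, was at 710.20 and 983.94 TPM in +/+ cultures and at 722.51 TPM in Chd5-/- replicate 1, but at 110.93 TPM in Chd5-/- replicate 2. Its difference of -1.56 was the largest downward in this list and had an interval of -3.77 to 0.66. Pold1, the catalytic subunit of DNA polymerase delta, had the largest upward, from 0.99 and 0.39 TPM to 4.58 and 3.39 TPM (difference 1.57, limma adjusted p = 0.126), a difference that was 0.51 with GC content and length trends removed.

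**Figure D5:**
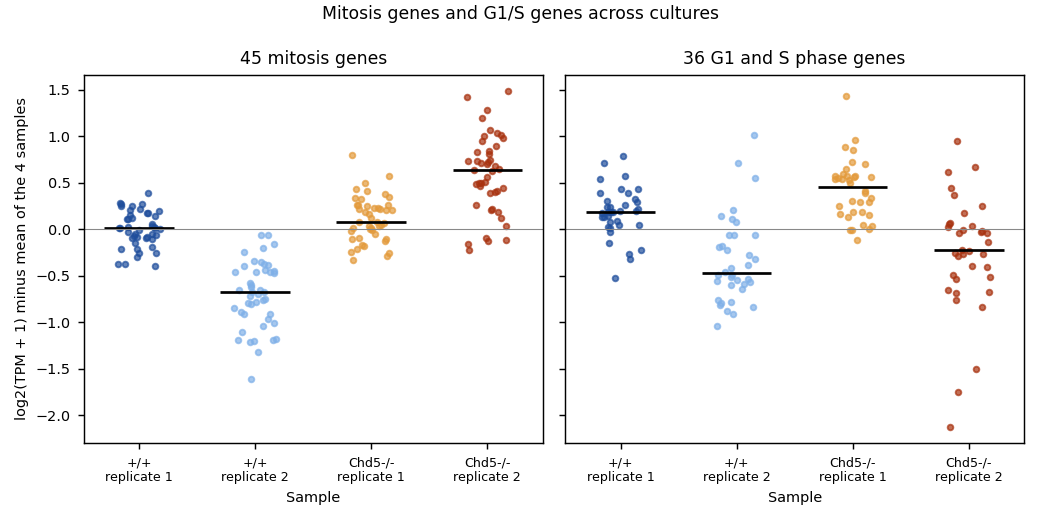
log2(TPM + 1) of each gene in each culture minus its mean over the 4 cultures, for the 45 mitosis genes (left) and the 36 G1 and S phase genes (right), with 1 point per gene and the median as a black line. Chd5-/- replicate 2 has the highest median on the left and lies below Chd5-/- replicate 1 on the right, with a median difference of 0.57 on the left and -0.54 on the right.

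Further genes of the mitotic machinery, taken from lists of their own, had medians from -0.044 to 0.70 by list, and their called counts are read against the 21.9% of all rows higher and 2.27% lower. Of 29 other kinesins and spindle assembly genes, 9 were higher and 0 lower at an unadjusted p under 0.05 in limma, with a median of 0.70. Cdca3, known as a trigger of mitotic entry, differed most, from 14.73 and 5.19 TPM in +/+ to 26.54 and 54.74 TPM in Chd5-/- cultures (difference 1.99, adjusted p = 0.144), and Kif18a, which dampens chromosome oscillations, was lowest at -0.34. Of 17 subunits and partners of the anaphase-promoting complex, 7 were higher and 0 lower, with a median of 0.36. Ube2s, which extends ubiquitin chains on its targets, was at 27.07 and 10.65 TPM in +/+ and 82.36 and 73.10 TPM in Chd5-/- cultures (difference 2.12, limma adjusted p = 0.12), while Anapc10 had a difference of -0.47. In a list of 32 drawn up as further kinetochore and centromere genes, 5 were higher and 0 lower, with a median of 0.20. The differences ran from Mad2l2 at 1.83 to Cenpk at -0.46. Mad2l2 is in that list by its label only, and a role at kinetochores is not implied. Of 11 cohesin and condensin II genes 1 was higher, Ncaph2, at 1.31, with a median of -0.044 and the lowest difference in Pds5b, at -0.26. The differences of Ube2s, Cdca3, Mad2l2 and Ncaph2 were 1.19, 1.11, 0.96 and 0.60 without the GC content and length trends. No gene of these lists passed an adjusted p of 0.05.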

How the data were processed

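RNA-seq of 4 primary mouse NSC cultures, 2 +/+ and 2 Chd5-/-, was used as a deposited table of TPM, which the authors made from stranded poly(A) libraries. The submitters' processing notes name Bowtie2 2.2.3, RSEM 1.2.20 and mm10. The gene annotation, the use of strand in counting and the original test are not given in the sources used here. TPM keeps no depth, so precision rested on 2 cultures per genotype, and same-numbered cultures share only a number. All 4 columns were assigned by name, and 196 gene names occurred in more than 1 row.

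log2(TPM + 1) was compared over rows averaging 1 TPM or more with limma 3.58.1 in R 4.3.3 (eBayes with a trend, two-sided, Benjamini-Hochberg over all 12576 rows). The fit was tested on simulated data. No count test was used, since TPM are not counts. The members, lists and tests were chosen with earlier results of these data known. Values in every sample are given for the genes of highest TPM (3 of all, 1 per role), the 6 of largest and 3 of smallest difference and the 6 of smallest p, and the largest rise and fall in each other list are named. Genes named beyond this were picked with their values in view.

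Coordinates, GC content and transcript length came from GENCODE M21 (GRCm38) and covered 96.3% of rows tested and all 45 members. Trends on both were removed by loess (span 0.5). Similar genes were those of at least 95% identity over at least 300 bases. Other settings tried were pseudocounts of 0.1 and 5, testing without a minimum or from 10 TPM, scaling by median of ratios, by quantiles or after dropping the 20 most abundant rows, removal of the trends, a block for the replicate number, a variance prior without trend, and fits that left out each culture in turn. Python 3.11.15, pandas 2.3.3, numpy 2.4.6, scipy 1.17.1 and matplotlib 3.10.9 were used for tables and figures.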

Additional observations from a re-analysis of the deposited data

How the results depend on the processing

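Of 674 recalculations of single genes, 39 changed sign, in 14 of the 45 genes, and 31 genes kept theirs throughout. The 7 rows of the table at an adjusted p under 0.05 in limma were 4 with a pseudocount of 0.1, 3 with quantile normalization, 0 (3473 at an unadjusted p under 0.05) with no minimum, 0 (1351 unadjusted) with GC content and length trends removed, and from 0 to 1247 with 1 culture left out. The 11 mitotic genes at an unadjusted p under 0.05 were 7 with no minimum, 5 with median-of-ratios scaling, 2 with quantile normalization, 5 after rescaling, 1 with the trends removed, and from 0 to 24 with 1 culture left out. The 26 genes without overlap were 13 with median-of-ratios scaling, 16 with the trends removed, and from 26 to 44 with 1 culture left out. The counts at a p threshold with 1 culture left out are not interpreted. Those fits take the spread of the lone culture from the other genotype. The median difference of the 45 genes kept its sign, between 0.22 and 0.98. With median-of-ratios scaling the difference turned to -0.026 for Ccna2, -0.14 for Bub1, -0.22 for Ttk, -0.21 for Ndc80, -0.095 for Nuf2, -0.22 for Ect2 and -0.16 for Ncapg. With quantile normalization it turned to -0.14 for Bub1, -0.30 for Ttk, -0.21 for Ndc80, -0.099 for Spc24, -0.12 for Ect2 and -0.097 for Ncapg, and after rescaling to -0.049 for Ttk, -0.042 for Ndc80 and -0.047 for Ect2. With the trends removed, with or without the block, it turned to -0.30 for Plk1, 0.056 for Plk4, -0.32 for Spc24 and 0.049 for Smc4. With 1 culture left out the differences ran from -0.066 to 0.57 for Bub1, -0.078 to 0.85 for Ccna2, -0.023 to 1.26 for Cenpf, -0.20 to 0.56 for Ect2, -0.061 to 0.94 for Kif11, -0.51 to 0.046 for Mad2l1, -0.020 to 0.49 for Ncapg, -0.16 to 0.53 for Ndc80, -0.025 to 0.65 for Nuf2, -0.30 to 0.18 for Plk4, -0.042 to 0.89 for Spc24 and -0.089 to 0.43 for Ttk. The cause was not tested.

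With the replicate number as a block, 6 mitotic genes had an unadjusted p under 0.05 in limma, where 18.2% of all rows (2289) did. No row passed the adjusted threshold. With the block and the trends removed, 0 mitotic genes and 7.1% of rows (863) had an unadjusted p under 0.05, and 0 rows passed the adjusted threshold. There 16 genes were without overlap. Replicate 1 minus replicate 2 in the 2 genotypes had a Pearson correlation of only -0.15 over 12576 rows. Over the 45 mitotic genes, where same-numbered cultures deviated in opposite directions, it was -0.71. A crossed block, chosen after seeing the data, gave 18 mitotic genes at an unadjusted p under 0.05 (against 24.6% of all rows) and 5 rows at the adjusted threshold. With 2 cultures per genotype and no depth, differences of the size seen between replicates cannot be assigned to genotype.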

Other observations

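Among 11 inhibitors of the cell cycle, 4 were higher and 1 lower in Chd5-/- NSCs at an unadjusted p under 0.05 in limma, where 21.9% of all rows were higher and 2.27% lower, with a median difference of 0.38 in log2(TPM + 1). Rb1, the retinoblastoma protein that holds back E2F factors, was at 115.70 and 125.17 TPM in +/+ and at 59.47 and 72.89 TPM in Chd5-/- cultures, a difference of -0.86 (limma adjusted p = 0.13). Pkmyt1, a membrane-bound kinase that inhibits Cdk1, was at 0.76 and 0.77 TPM in +/+ and at 8.08 and 2.93 TPM in Chd5-/- cultures, a difference of 1.76 (limma adjusted p = 0.139), which was 0.69 with GC content and length trends removed. Cdkn1a (p21), which inhibits cyclin-dependent kinases and was picked after its values were seen, separated the 2 Chd5-/- cultures, at 881.98 TPM in replicate 1 and 155.84 TPM in replicate 2, where the +/+ cultures were at 338.21 and 357.54 TPM. Ccnd2 (cyclin D2), picked in the same way, was at 327.37 and 325.43 TPM in +/+ cultures and at 250.67 and 58.15 TPM in Chd5-/- replicates 1 and 2. In the culture with the highest summed mitotic RNAs, Chd5-/- replicate 2, Ccnd1, Ccnd2 and Cdkn1a were thus at their lowest of the 4, whereas Ccnd3, the remaining D-type cyclin, was at 9.59 and 7.73 TPM in +/+ and 18.07 and 14.16 TPM in Chd5-/- replicates 1 and 2.

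Of 21 regulators of mitotic gene transcription, 2 were higher and 1 lower by the same measure (21.9% and 2.27% of all rows), with a median difference of 0.22. Foxm1, an activator of G2 and mitosis genes picked after its values were seen, was at 8.03 and 3.27 TPM in +/+ and 9.14 and 15.05 TPM in Chd5-/- cultures, with +/+ replicate 2 lowest and Chd5-/- replicate 2 highest, as in 37 of the 45 mitotic genes. Lin37, a subunit of the MuvB core, had the largest difference upward, from 5.16 and 4.33 TPM to 15.44 and 14.29 TPM (difference 1.47, limma adjusted p = 0.12), and the 2 cultures of each genotype lay close together. E2f5, a repressor E2F, had the largest downward, from 69.96 and 78.22 TPM to 43.41 and 52.68 TPM (difference -0.62, limma adjusted p = 0.189). With GC content and length trends removed, Lin37 differed by 0.58 and E2f5 by -0.73. Promoter windows of 28 G1 and S phase genes held a CHR in 17.9% and a CCAAT box in 57.1%, against 75.7% and 73% of the mitotic genes.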
